A study of Mus musculus with 6 samples.

Results

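Fibrillins, latent TGF-beta binding proteins (LTBPs), elastin and fibulins build the microfibrils and elastic fibres of the extracellular matrix. Their 10 genes (Fbn1, Fbn2, Ltbp1, Ltbp2, Ltbp3, Ltbp4, Eln, Fbln1, Fbln2 and Fbln5) were taken by symbol from a table of 53465 mouse genes. All 10 were in the table. The list was built around Fbn2, which was selected on its counts in these same cell lines because it was on in one group and off in the other. The Fbn2 values are therefore a description without a test, and the other 9 genes carry the comparison.

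RNA was sequenced from 6 primary cell lines, each grown from the liver tumour of a different C57BL/6 mouse. The 3 Myc_Utx lines (2A, 2B and 2D) came from tumours deficient for Kdm6a, the gene of the histone H3K27 demethylase also called Utx, and the 3 Myc_p53 lines (1, 2 and 3) came from p53 knockout tumours. Both groups carry a Myc transgene, so the comparison is between 2 second lesions and holds no line with Myc alone. Adult female mice had received a Myc transposon driven by the EF1a promoter, a transposase and a Cas9 plasmid with a guide RNA by hydrodynamic tail vein injection, which reaches a part of the hepatocytes. Tumours were digested and the cells passaged, on collagen-coated plates, until other cells were no longer seen. The labels give Utx as the lesion of the first group, while the sequencing methods of the study name an Mll3 guide, and the label names are used here.

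Fibrillins are large glycoproteins that assemble end to end into microfibrils. LTBPs are related proteins that bind the propeptide of TGF-beta in the cell and anchor the latent growth factor on fibrillin and fibronectin outside it. Elastin is laid down on microfibrils with the help of fibulins and is cross-linked by lysyl oxidases, while furin and related convertases trim the fibrillin precursors. In liver these genes are known mainly from stellate cells and portal fibroblasts rather than from hepatocytes.

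The number of counted reads ranged from 4656103 to 6937497 per line. Kdm6a, the gene targeted in the first group, had 199, 244 and 220 counts in Myc_Utx_2A, 2B and 2D, and 440, 348 and 298 counts in Myc_p53_1, 2 and 3. Scaled to library size with TMM factors, these are 39.7, 45.7 and 49.0 CPM (counts scaled to a million-read library) against 69.5, 64.5 and 42.5 CPM, and the ranges overlap. A guide-induced indel need not lower the mRNA, and whether these lines carry one was not tested here. Pearson's r of log2 CPM across genes was 0.9423 to 0.9495 between Myc_Utx lines and 0.8778 to 0.9375 between Myc_p53 lines, so the Myc_p53 lines were less alike. Hepatocyte markers were low in every line, with 4 to 26 counts of Alb and a summed level of 9.97 to 82.2 CPM in Myc_Utx and 47.3 to 88.7 CPM in Myc_p53 lines over 10 markers. The sum over 5 bile duct markers was 554 to 1462 CPM in Myc_Utx and 167 to 1543 CPM in Myc_p53 lines. Endothelial markers were near 0, at no more than 1.42 CPM summed over 6 markers.

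Of the 10 genes, 8 were above the low-count filter, Fbn2 only through the group where it is high, and Ltbp2 and Eln were not tested. The quasi-likelihood test of edgeR with Benjamini-Hochberg adjustment over all 11510 genes tested called 0 of the 7 tested genes other than Fbn2 higher in Myc_Utx lines, against 6.99% of all genes, and 1 of them, Fbln2, lower, against 7.69%. These shares stand for 805 and 885 genes, or 601 and 1009 with scaling by total counts only. Before adjustment, the edgeR p was under 0.05 for 2 of the 7, the other being Ltbp4, beside 4026 of all 11510 genes tested. The median log2 fold change (Myc_Utx over Myc_p53) of the 7 genes was -0.14, beside -0.0117 for all genes tested. Of the 7 tested genes other than Fbn2, 6 had overlapping groups and 1, Fbln2, did not, whereas 42% of all genes tested showed no overlap. Fbn2 did not overlap either, but it was selected for that pattern and is not counted. With 3 lines against 3, the groups allow no two-sided exact permutation p under 0.1.

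**Figure D1:**
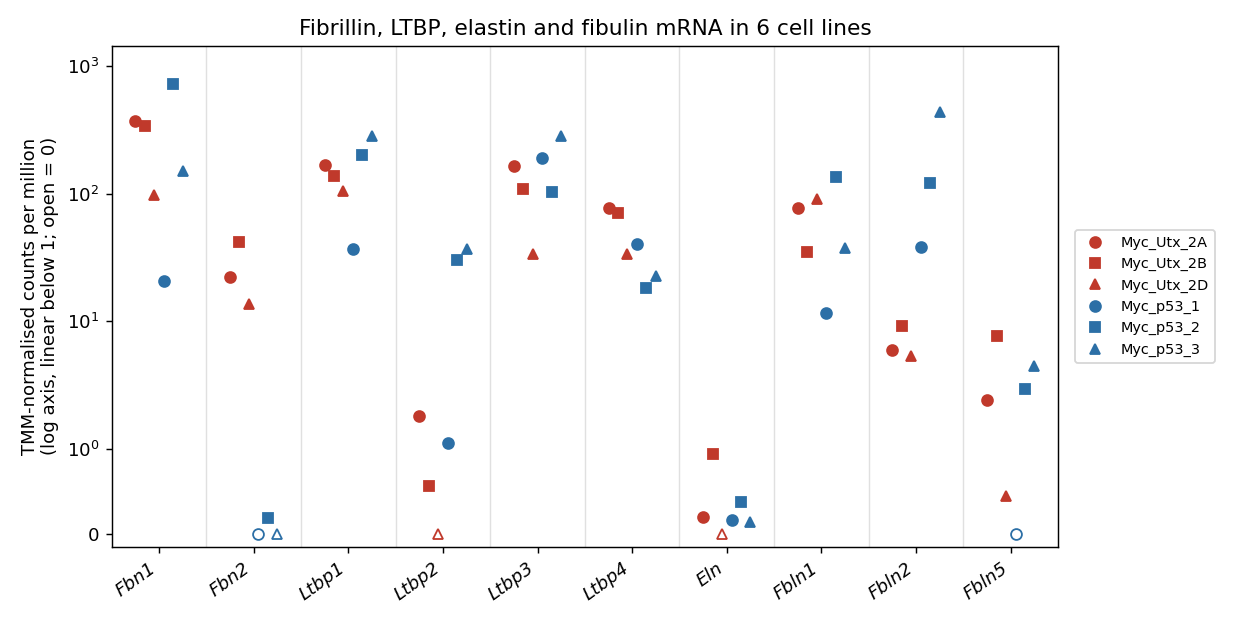
TMM-normalised CPM of the 10 genes (log axis, linear below 1) in the 3 Myc_Utx lines (red) and the 3 Myc_p53 lines (blue), with 1 symbol per line and open symbols at 0. Fbn2 lies between 13.6 and 42.1 CPM in Myc_Utx and at or under 0.185 CPM in Myc_p53 lines, Fbln2 is lower in all 3 Myc_Utx lines, and the other genes overlap.

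Fbn2 encodes fibrillin-2, the fibrillin best known from embryonic and newly forming matrix. It had 111, 225 and 61 counts in Myc_Utx_2A, 2B and 2D, and 0, 1 and 0 counts in Myc_p53_1, 2 and 3. Its level was 22.1, 42.1 and 13.6 CPM in the Myc_Utx lines (26.0 ± 14.7 CPM, SD, n = 3). All Myc_p53 lines were at or under a floor of 3 counts per library, the upper limit that a count of 0 allows. A count of 1, as in Myc_p53_2, allows a higher limit, so the fold values against the floor are approximate bounds. Set against that floor, 0.486 CPM on average, Fbn2 was at least 53.4-fold higher in Myc_Utx lines. The bound was at least 45.6-fold for Myc_Utx_2A, 86.7-fold for 2B and 28.0-fold for 2D, and it ranged from 37.2-fold to 67.0-fold when each line was left out in turn. Counting error is the only error the floor covers. Values in bulk RNA cannot tell fewer cells with a transcript from less transcript per cell.

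Fbn2 lies on the minus strand of chromosome 18 (GRCm38, 58008623 to 58209926). Of 8 protein-coding genes that start within 1 Mb of it, 4 passed the filter. Isoc1 had 599, 654 and 495 counts in the Myc_Utx lines and 328, 257 and 340 counts in the Myc_p53 lines, with no overlap in CPM, and was higher by 1.25 on the log2 scale (SE 0.11, edgeR adjusted p = 0.00992). Prrc1 differed by 0.66 (SE 0.22, edgeR adjusted p = 0.0837), Slc12a2 by -0.07 (adjusted p = 0.912) and Megf10 by -0.14 (adjusted p = 0.937), none of which passed the test. The other 4 neighbours were close to silent, with at most 2 counts of Slc27a6 in a line and 0 of Adamts19, Ctxn3 and 1700011I03Rik. The 5 tested genes whose log2 CPM followed that of Fbn2 most closely over the 6 lines were Mtap, Khdrbs1, Psrc1, Spryd4 and Zfp51, with Pearson's r of 0.9965, 0.9958, 0.9955, 0.9944 and 0.9939. With 6 points in 2 groups, such an r is mostly a record of the group split. The 5 genes differed in size of change: Psrc1 had 188, 198 and 142 CPM against 16.0, 18.3 and 13.8 CPM, while the values were 570, 579 and 499 CPM against 247, 262 and 237 CPM for Mtap and 398, 418 and 398 CPM against 333, 344 and 332 CPM for Khdrbs1.

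Fbn1 encodes fibrillin-1, the main structural fibrillin of adult tissue and the gene mutated in Marfan syndrome. It lies on chromosome 2 (GRCm38, 125300594 to 125507993, minus strand). It had 1855, 1798 and 437 counts in Myc_Utx_2A, 2B and 2D, and 130, 3876 and 1057 counts in Myc_p53_1, 2 and 3. In CPM this was 370.0, 337 and 97.3 against 20.5, 718 and 151. The highest and the lowest line were both Myc_p53 lines, 35.0-fold apart, while the Myc_Utx lines spanned 3.80-fold. The group means were 268 ± 149 and 297 ± 371 CPM (SD, n = 3 each), a log2 fold change of -0.14 (SE 1.12, edgeR adjusted p = 0.939). Without Myc_p53_2 the log2 fold change was 1.65 and without Myc_Utx_2D it was 0.27, so its sign depends on which lines are included, and neither value passed the test.

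Per kilobase of transcript, the scale on which genes can be compared with each other, Fbn1 exceeded Fbn2 in every line. On this scale (RPKM, the CPM divided by the transcript length in kilobases) Fbn1 was at 30.5, 27.8 and 8.02 and Fbn2 at 2.11, 4.02 and 1.30 in Myc_Utx_2A, 2B and 2D. Fbn2 therefore made up 6.48% to 13.9% of fibrillin transcripts in Myc_Utx lines and 0% to 0.0298% in Myc_p53 lines. With the longer Fbn2 exon length of GENCODE the share in Myc_Utx lines was 5.21% to 11.4%.

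**Figure D2:**
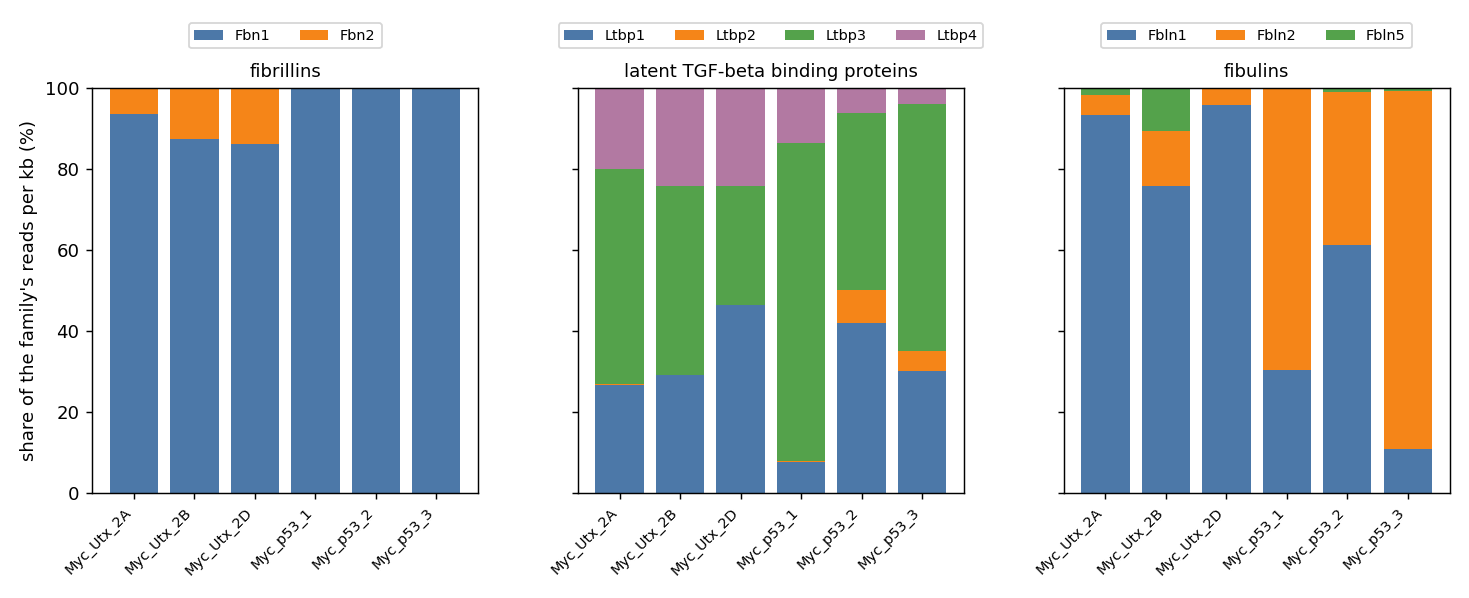
Share of each gene in the reads per kilobase of its family (%), as stacked bars for each of the 6 lines, for fibrillins (left), LTBPs (middle) and the 3 fibulins (right). Fbn2 is visible in Myc_Utx bars alone (6.48% to 13.9%), Ltbp4 holds 19.9% to 24.1% in Myc_Utx and 3.95% to 13.5% in Myc_p53 lines, and Fbln2 holds 3.87% to 13.6% against 38.0% to 88.2%.

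Several other mesenchymal genes had the same lowest line as Fbn1. Myc_p53_1 was the lowest line for Fbn1, Ltbp1 and Fbln1, and also for Lox, the founding lysyl oxidase, for Col3a1, a fibrillar collagen chain, and for Pdgfrb, a receptor of pericytes and stellate cells. Lox had 1815, 1049 and 2632 CPM in the Myc_Utx lines and 9.32, 2706 and 91.5 CPM in Myc_p53_1, 2 and 3. Col3a1 had 1730.5, 2301 and 2558 CPM against 10.3, 2721 and 73.9 CPM. Myc_p53_2 thus stood with the Myc_Utx lines for both genes, and Myc_p53_1 and 3 stood far below. The order was turned for the epithelial keratin Krt8, with 12.2, 37.4 and 0 CPM in Myc_Utx and 717, 15.4 and 446 CPM in Myc_p53 lines. The groups overlapped for Krt8 and for the keratin Krt18, and neither passed the test (edgeR adjusted p = 0.105 and 0.139). Epcam, another epithelial marker, was not tested and overlapped, at 2.59, 0.374 and 0 CPM against 1.74, 0.741 and 4.85 CPM. Cdh1, the epithelial cadherin, had 0, 2 and 1 counts against 78, 19 and 296 counts and was lower in Myc_Utx lines (log2 fold change -6.44, SE 1.27, edgeR adjusted p = 0.0274). Cdh1 owed its place above the low-count filter to the Myc_p53 lines, so its call rests on the group where it is high.

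The summed level of 11 fibroblast and stellate cell markers, of which 8 were above 3 counts in any line, was 1946 to 2679 CPM in Myc_Utx lines and 36.2, 3151 and 505 CPM in Myc_p53_1, 2 and 3. Col3a1 made up most of it in the Myc_Utx lines and Myc_p53_2. The other markers of the list did not all have Myc_p53_1 as the lowest line: Dcn had 0.199, 0.562 and 0 CPM in Myc_Utx and 13.6, 1.67 and 15.5 CPM in Myc_p53 lines, and Col1a2 had 28, 319 and 5 counts against 16, 549 and 456 counts. Of the defining markers, Lum was at 1 count or fewer, Lrat at 0 and Reln at 2 counts or fewer in every line. The sum over 4 epithelial markers was 0.223 to 86.1 CPM in Myc_Utx and 39.7 to 1203 CPM in Myc_p53 lines. The part of the cell state in the Fbn1, Ltbp1 and Fbln1 levels was not tested.

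**Figure D3:**
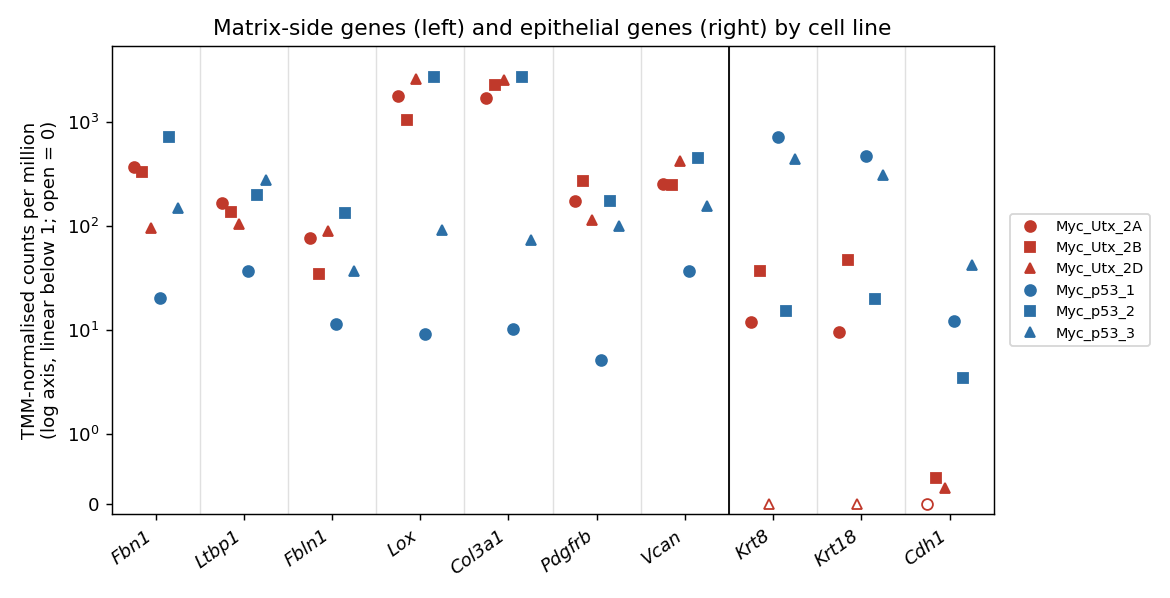
TMM-normalised CPM (log axis, linear below 1, open symbols at 0) of 7 matrix-side genes (left of the line) and 3 epithelial genes (right) in the 3 Myc_Utx lines (red) and 3 Myc_p53 lines (blue). The 7 matrix-side genes are a selection in which Myc_p53_1 is the lowest line. The fibroblast markers Dcn and Col1a2, which have another lowest line, and the epithelial marker Epcam, whose groups overlap, are not drawn. Myc_p53_2 has 15.4 CPM of Krt8 where Myc_p53_1 and 3 have 717 and 446.

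Among the LTBPs no gene passed the test. Ltbp1 and Ltbp3 were high in most lines, and Ltbp2 was above the level of a few counts in 2 Myc_p53 lines. Ltbp1, the prototype carrier of latent TGF-beta on chromosome 17 (75005568 to 75392512, plus strand), had 837, 737 and 475 counts in Myc_Utx_2A, 2B and 2D and 234, 1077 and 1973 counts in Myc_p53_1, 2 and 3. Its level of 137 ± 30.6 CPM in Myc_Utx lay within the wide range of the Myc_p53 lines (37.0, 199.6 and 281 CPM, mean 173 ± 124). The log2 fold change was -0.33 (SE 0.65, edgeR adjusted p = 0.738).

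Ltbp3, which carries latent TGF-beta above all in bone and cartilage and lies on chromosome 19 (5740904 to 5758532, plus strand), had 827, 584 and 150 counts in the Myc_Utx lines and 1197, 552 and 1979 counts in the Myc_p53 lines. Its level was 165, 109 and 33.4 CPM against 189, 102 and 282 CPM, with Myc_Utx_2D lowest, and the groups overlapped. The log2 fold change of -0.90 (SE 0.60) did not pass the test (edgeR adjusted p = 0.328).

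Ltbp4, an LTBP that also takes part in elastic fibre assembly through fibulin-5 (chromosome 7, 27305136 to 27337692, minus strand), had 386, 376 and 152 counts in Myc_Utx_2A, 2B and 2D and 257, 98 and 160 counts in Myc_p53_1, 2 and 3. Its level was 77.0, 70.4 and 33.8 CPM against 40.6, 18.2 and 22.8 CPM, and the only overlap was that Myc_Utx_2D lay below Myc_p53_1. The means of 60.4 ± 23.2 and 27.2 ± 11.8 CPM (SD, n = 3 each) gave a log2 fold change of 1.15 (SE 0.42), which did not pass the test (edgeR adjusted p = 0.105). DESeq2 placed it past the threshold (adjusted p = 0.0380), and adjusted p over the other alternatives with all 6 lines reached 0.129. As a share of LTBP transcripts per kilobase, Ltbp4 held 19.9% to 24.1% in Myc_Utx and 3.95% to 13.5% in Myc_p53 lines, with no overlap. With GENCODE exon lengths, which are longer for Ltbp3, the shares were 25.9% to 30.3% and 5.39% to 20.4%.

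Ltbp2, which does not bind latent TGF-beta and competes with LTBP1 for fibrillin (chromosome 12, 84783212 to 84876532, minus strand), had 9, 3 and 0 counts in Myc_Utx_2A, 2B and 2D and 7, 164 and 260 counts in Myc_p53_1, 2 and 3. Myc_p53_2 and 3 were thus high at 30.4 and 37.1 CPM, while Myc_p53_1, at 1.11 CPM, lay among the Myc_Utx lines. It was below the low-count filter and has no test in the comparison as specified. The ratio of its mean levels, 0.786 ± 0.918 against 22.9 ± 19.1 CPM, was -4.86 on the log2 scale. Without the filter its log2 fold change was -4.76 (edgeR adjusted p = 0.0446) and with DESeq2 it was -4.84 (adjusted p = 0.000960). With 1 line left out, 4 such fits had a value for it, and their adjusted p ranged from 0.0382, without Myc_p53_1, to 0.180.

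Eln, the gene of tropoelastin on chromosome 5 (134702593 to 134747323, minus strand), was at the floor. It had 1, 5 and 0 counts in the Myc_Utx lines and 1, 2 and 1 counts in the Myc_p53 lines, so no difference was detectable at this depth. Only Myc_Utx_2B exceeded 3 counts. The members of the elastic fibre machinery were thus measured in cells with next to no elastin transcript.

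Among the members, the fibulin gene Fbln2 alone passed the test, and Fbln1 and Fbln5 did not. Of 3 other fibulin family genes tested, 1 was lower (Efemp1), 1 higher (Hmcn2) and Efemp2 did not pass. Of all genes tested, 7.69% were lower and 6.99% higher. Fbln2 encodes fibulin-2, a bridging protein of microfibrils and basement membranes that is made by portal fibroblasts in liver. Its gene lies on chromosome 6 (91212455 to 91272540, plus strand). It had 30, 49 and 24 counts in Myc_Utx_2A, 2B and 2D and 243, 656 and 3073 counts in Myc_p53_1, 2 and 3. Its level was 5.98, 9.17 and 5.34 CPM (6.83 ± 2.05, SD, n = 3) against 38.4, 122 and 438 CPM (199 ± 211, SD, n = 3). Every Myc_p53 line lay above every Myc_Utx line, and the Myc_p53 lines differed among themselves by 11.4-fold.

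Fbln2 was 29.0-fold lower in Myc_Utx lines (log2 fold change -4.86, SE 0.96, edgeR adjusted p = 0.0274). It passed the test in all 6 alternatives with every line, at an adjusted p of 1.07e-05 to 0.0324. With 5 lines it passed without Myc_p53_1 (log2 fold change -5.35, adjusted p = 0.0304) and without Myc_p53_2 (-5.10, adjusted p = 0.0322). It did not pass without Myc_Utx_2A (-4.75, adjusted p = 0.0933), 2B (-5.11, adjusted p = 0.0864) or 2D (-4.69, adjusted p = 0.105), nor without Myc_p53_3, the highest line (-3.54, adjusted p = 0.0536). Over all genes, such fits called far fewer genes too, 3 higher and 1 lower without Myc_Utx_2A. The sum over 4 smooth muscle markers was also lower in Myc_Utx lines, 7.58 to 22.3 CPM against 32.1, 94.7 and 337 CPM in Myc_p53_1, 2 and 3. Cnn1, with 3, 7 and 2 counts against 147, 393 and 633, made up most of the sum in Myc_p53_1 and 2. Acta2, with 6.58, 18.2 and 13.8 CPM against 6.16, 18.9 and 221 CPM, and Tagln, with 0.199, 2.62 and 0 CPM against 2.37, 2.41 and 19.8 CPM, overlapped and did not pass the test (edgeR adjusted p = 0.189 and 0.171). Myh11, the defining smooth muscle marker, had 1 count in each Myc_Utx line and 2, 3 and 42 counts in the Myc_p53 lines. The part of that state in the Fbln2 level was not tested.

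Fbln1 encodes fibulin-1, which binds fibronectin and the aggrecan and versican proteoglycans, from chromosome 15 (85205949 to 85286535, plus strand). It had 390, 187 and 408 counts in the Myc_Utx lines and 73, 724 and 262 counts in the Myc_p53 lines, or 77.8, 35.0 and 90.9 CPM against 11.5, 134 and 37.4 CPM. The lowest and the highest line were again Myc_p53_1 and 2, and the log2 fold change was 0.16 (SE 0.83, edgeR adjusted p = 0.908). Fbln5 encodes fibulin-5, which tethers tropoelastin and lysyl oxidases to microfibrils, from chromosome 12 (101746565 to 101819055, minus strand), and was low, with 12, 41 and 2 counts against 0, 16 and 31 counts. Its groups overlapped as well (log2 fold change 0.52, SE 1.27, edgeR adjusted p = 0.796). Per kilobase, Fbln1 made up 75.9% to 95.8% of the transcripts of these 3 fibulins in Myc_Utx lines and 11.0% to 61.2% in Myc_p53 lines, and Fbln2 made up 3.87% to 13.6% and 38.0% to 88.2%. The order of Fbln1 and Fbln2 was therefore turned in Myc_p53_1 and 3 and not in Myc_p53_2.

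Efemp1, which encodes fibulin-3, was close to absent from Myc_Utx lines. It had 1, 11 and 0 counts in Myc_Utx_2A, 2B and 2D and 443, 316 and 938 counts in Myc_p53_1, 2 and 3 (log2 fold change -6.75, SE 0.88, edgeR adjusted p = 0.0163). Hmcn2, a very long hemicentin with fibulin-type repeats, went the other way, with 47, 110 and 29 counts against 6, 4 and 15 counts (log2 fold change 3.21, SE 0.62, edgeR adjusted p = 0.0270). Efemp1 owed its place above the low-count filter to the Myc_p53 lines and Hmcn2 to the Myc_Utx lines. Each call thus rests on the group where the gene is high. Efemp2, or fibulin-4, which elastic fibre assembly requires, had overlapping groups at 59.5 ± 41.5 and 66.8 ± 40.5 CPM (log2 fold change -0.17, adjusted p = 0.873). Fbln7 and Hmcn1 were not tested. With 1 line left out, adjusted p was 0.0155 to 0.0630 for Efemp1 and 0.0468 to 0.0782 for Hmcn2. Efemp1 passed without Myc_Utx_2B, the only Myc_Utx line above 1 count (adjusted p = 0.0368, fitted log2 fold change -9.41 against 1 and 0 counts, which depends on the prior count), Myc_p53_1 (adjusted p = 0.0339) and Myc_p53_2 (adjusted p = 0.0155), and Hmcn2 without Myc_p53_2.

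**Figure D4:**
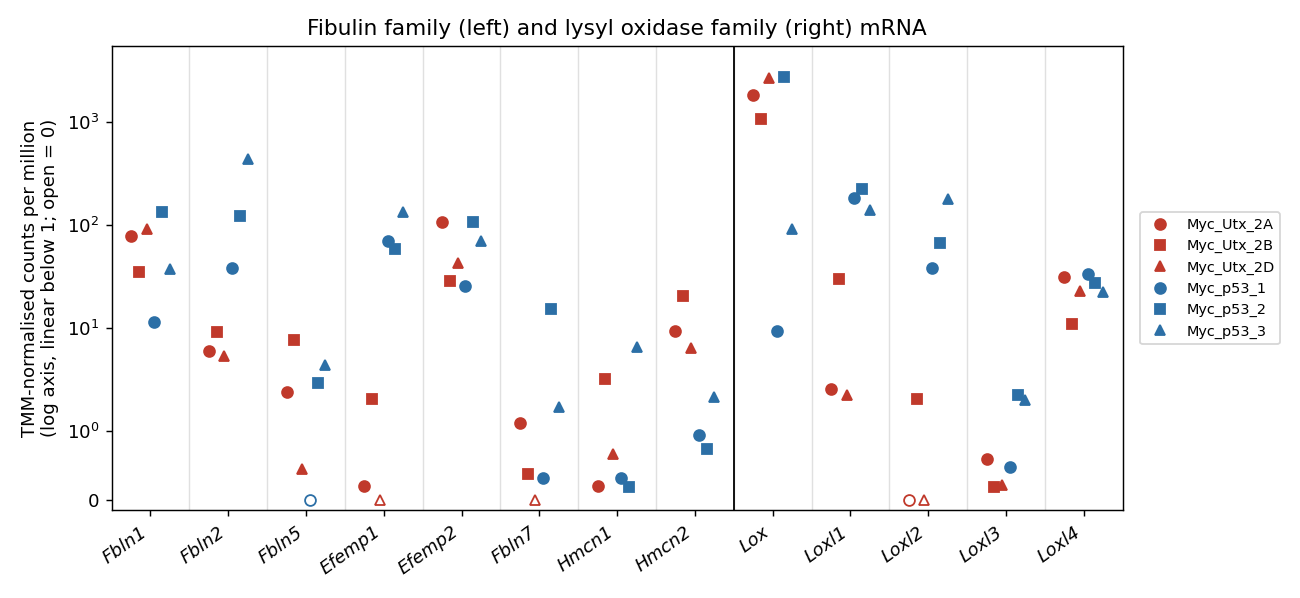
TMM-normalised CPM (log axis, linear below 1, open symbols at 0) of 8 fibulin family genes (left of the line) and 5 lysyl oxidases (right) in the 3 Myc_Utx lines (red) and 3 Myc_p53 lines (blue). Fbln2, Efemp1, Loxl1 and Loxl2 are lower in all Myc_Utx lines, Hmcn2 is higher in all of them, and Lox spans 9.32 to 2706 CPM within Myc_p53.

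Fbln2 and Efemp1, a member and a relative from the same family, were the 2 fibulin genes called lower in Myc_Utx lines. The Efemp1 call rests on the group where it is high, so the shared direction is a description only. The start regions of both genes are shown. Each is the RefSeq window of 300 bases on GRCm38.p6, from 250 before a RefSeq transcript start to 50 after it, read on the plus strand. For Fbln2 it is chr6:91212514-91212813, and for Efemp1 chr11:28852955-28853254. The Fbln2 window lies inside the gene as the table bounds it, since the gene there begins further upstream. Capitals mark matches, on either strand, to the SMAD box CAGAC and the AP-1 motif TGANTCA.
Fbln2: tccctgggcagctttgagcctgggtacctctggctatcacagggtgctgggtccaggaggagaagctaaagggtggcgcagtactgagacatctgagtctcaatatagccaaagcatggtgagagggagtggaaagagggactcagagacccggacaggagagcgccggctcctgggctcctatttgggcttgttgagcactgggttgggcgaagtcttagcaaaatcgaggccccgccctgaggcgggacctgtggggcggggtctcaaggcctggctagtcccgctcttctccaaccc
Efemp1: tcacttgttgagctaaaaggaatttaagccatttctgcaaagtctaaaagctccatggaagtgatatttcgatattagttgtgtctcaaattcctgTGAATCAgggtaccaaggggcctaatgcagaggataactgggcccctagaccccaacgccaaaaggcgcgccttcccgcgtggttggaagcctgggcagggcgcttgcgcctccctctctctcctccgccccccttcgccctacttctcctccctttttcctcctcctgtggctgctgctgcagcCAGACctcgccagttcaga

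The Fbln2 window held no match to these motifs, to the Myc E-box CACGTG, to the TEAD motif GGAATG or to TATAAA. The Efemp1 window held 1 SMAD box and 1 AP-1 motif. Of 32851 windows of the same length, 49.6% held a SMAD box, 7.81% an AP-1 motif, 7.15% an E-box, 14.7% the TEAD motif and 13.6% TATAAA. The window is one annotated start of each gene, and the counts do not show which start was used. Windows were matched for 8 of the 10 members, not for Fbn2 and Eln. GC content was 60.3% for Fbln2, 60.3% for Fbn1 and 54.3% for Efemp1, beside a median of 52.7%. The 8 windows ranged from 3 CpG in Ltbp3 to 24 in Fbln5, beside a median of 7, and Fbln1 with 12, Fbln2 with 10 and Fbn1 with 14 lay between.

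Beyond the members, 77 genes in 10 lists around elastic fibres were measured and 49 tested. The edgeR test called 2 of the 49 higher and 8 lower in Myc_Utx lines, beside 6.99% and 7.69% of all genes tested, and the median log2 fold change of the 49 was -0.35 beside -0.0117 for all genes tested. Efemp1, Loxl2, Mmp12, Ctss and Bmp2 owed their place above the low-count filter to the Myc_p53 lines. Hmcn2 owed it to the Myc_Utx lines. Their calls therefore rest on the group where each gene is high. With at least 10 counts required in every line, 3 of the 10 had a value, Mfap3, Loxl1 and Furin, and all 3 passed. None of the 10 calls turned its direction in any alternative. How many passed with 5 lines depended on which line was left out: 0 of the 10 passed without Myc_Utx_2A, 2 without 2B, 0 without 2D, 5 of 9 with a value without Myc_p53_1, 7 without Myc_p53_2 and 0 of 9 without Myc_p53_3. With all 6 lines, Adamtsl5 (adjusted p = 0.0510) and Bmp2 (adjusted p = 0.0715) each missed the threshold in 1 alternative of edgeR.

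Lysyl oxidases, the copper enzymes that cross-link elastin and collagen, held 2 of the lower genes. Loxl1, the form most tied to elastic fibres, had 13, 159 and 10 counts in Myc_Utx_2A, 2B and 2D and 1147, 1212 and 980 counts in Myc_p53_1, 2 and 3 (log2 fold change -3.96, SE 0.97, edgeR adjusted p = 0.0446). Myc_Utx_2B stood apart within its group, and without it the log2 fold change was -6.21 (adjusted p = 0.0173), the only fit with 5 lines in which Loxl1 passed. Loxl2, known for collagen IV cross-linking, had 0, 11 and 0 counts against 241, 357 and 1256 counts (log2 fold change -6.98, SE 1.17, edgeR adjusted p = 0.0196). All Myc_Utx counts of Loxl2 came from 2B, and without that line, with the group at 0, Loxl2 did not pass (adjusted p = 0.0613, fitted log2 fold change -12.05, which depends on the prior count). With 5 lines Loxl2 passed without Myc_p53_1 (adjusted p = 0.0359) and without Myc_p53_2 (adjusted p = 0.0239). Lox itself overlapped (log2 fold change 0.97, SE 1.61, edgeR adjusted p = 0.698), as did Loxl4 (-0.33, adjusted p = 0.579). The median over the 4 tested was -2.14.

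Of 9 microfibril-associated genes, 3 were tested and 1 was lower, Mfap3, at 46.5 ± 0.379 against 91.5 ± 21.8 CPM (log2 fold change -0.97, SE 0.19, edgeR adjusted p = 0.0261). Mfap2, Mfap4 and Mfap5 were low and not tested. Mfap2 had 0, 0 and 0 against 2, 31 and 2 counts, so only Myc_p53_2 held more than a few. Mfap5 had 0, 1 and 0 against 0, 1 and 5 counts, and Mfap4 had 0 counts in every line. Emilin1, an elastic fibre glycoprotein, had 20.3, 96.8 and 54.1 CPM in Myc_Utx and 0.474, 79.3 and 1.85 CPM in Myc_p53 lines, so that Myc_p53_2 again stood with the Myc_Utx lines. Emilin2 of the same list did not, at 9.77, 2.06 and 4.45 CPM against 9.32, 209 and 22.7 CPM, with Myc_p53_2 farthest from the Myc_Utx lines. Neither passed the test (edgeR adjusted p = 0.646 for Emilin1 and 0.0884 for Emilin2). Of 10 ADAMTS and ADAMTS-like genes, 6 were tested and 1 was lower, Adamtsl5, with 12, 19 and 6 counts against 147, 51 and 50 (log2 fold change -2.43, SE 0.59, edgeR adjusted p = 0.0439). Adamts6 and Adamts10, proteases that act on fibrillin microfibrils, had log2 fold changes of -0.01 and 0.67 and did not pass the test (adjusted p = 0.988 and 0.156).

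Of the 6 genes for processing enzymes, 3 were tested and 1 was higher. Furin, the convertase that trims profibrillin-1 and pro-TGF-beta, had 244, 209 and 263 CPM in Myc_Utx_2A, 2B and 2D and 127, 131 and 147 CPM in Myc_p53_1, 2 and 3. The groups did not overlap, and the means of 239 ± 27.6 and 135 ± 11.0 CPM gave a log2 fold change of 0.82 (SE 0.13, edgeR adjusted p = 0.0185). Bmp1, a procollagen C-proteinase that also cleaves LTBP1 and pro-lysyl oxidase, did not pass (log2 fold change -0.90, edgeR adjusted p = 0.200).

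**Figure D5:**
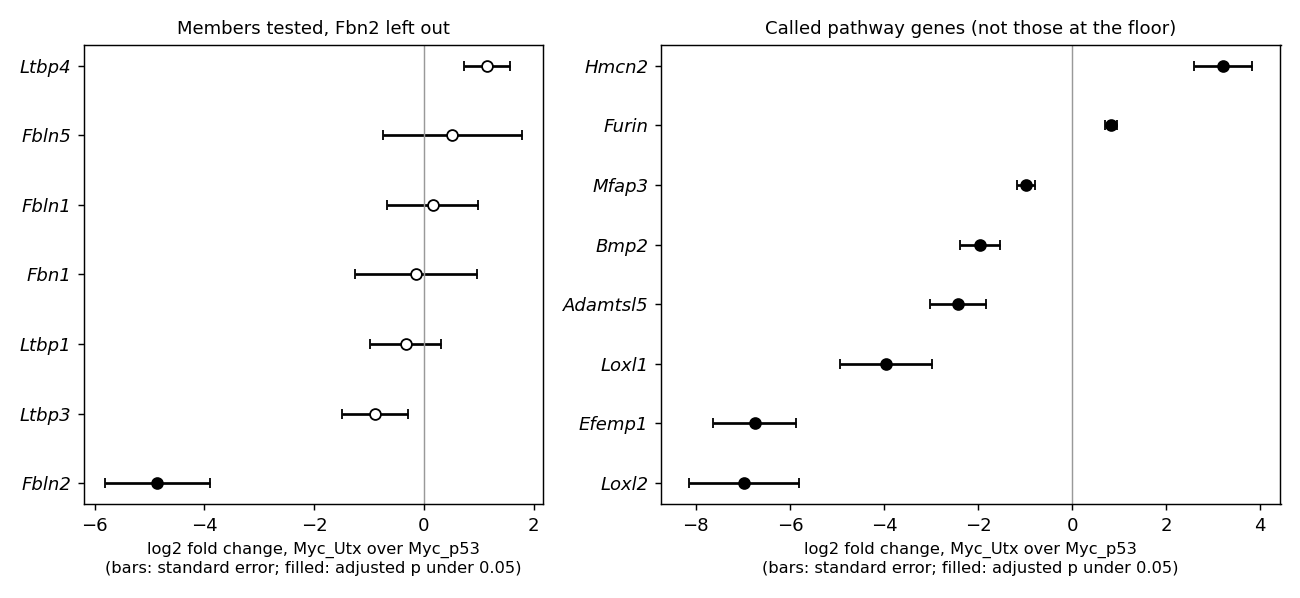
log2 fold change (Myc_Utx over Myc_p53) with its standard error for the 7 tested members other than Fbn2 (left) and the 8 called pathway genes with a fitted fold change (right), filled where the adjusted p is under 0.05. Fbln2 is the only filled member, at -4.86, and Hmcn2 (3.21) and Furin (0.82) are the pathway genes above 0.

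Elastin-degrading proteases held 2 lower genes of 4 tested. Mmp12, the macrophage elastase, had 0 counts in each Myc_Utx line and 40, 20 and 70 counts in the Myc_p53 lines, at least 10.9-fold lower against the floor of 3 counts per library (edgeR adjusted p = 0.0188). Ctss, the lysosomal elastase cathepsin S, had 0, 1 and 0 counts against 13, 10 and 36 counts, 4.95-fold lower against that floor (edgeR adjusted p = 0.0242). The list median of -2.88 became -1.49 with both genes set at the floor. Macrophage markers moved the same way: the sum over 9 markers was 2.79 to 5.99 CPM in Myc_Utx and 39.9 to 108 CPM in Myc_p53 lines, with 7 of 9 above 3 counts in each Myc_p53 line. Csf1r had 0, 1 and 0 counts against 259, 39 and 243 counts and Adgre1 0, 0 and 0 against 5, 5 and 11, while Clec4f was at 0 and Ptprc at 3 counts or fewer throughout. The part of macrophage RNA in these values was not tested.

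Neither the latent TGF-beta list (10 of 12 tested) nor the TGF-beta response list (9 of 9 tested) held a gene that passed the test. Tgfb1, the ligand carried by LTBPs, had 127, 103 and 58.1 CPM in Myc_Utx and 13.1, 53.6 and 56.3 CPM in Myc_p53 lines, without overlap but by a small margin (log2 fold change 1.23, SE 0.56, edgeR adjusted p = 0.175). Tgfbi, a secreted protein named for its induction by TGF-beta, had 37.3, 0.562 and 3.56 CPM against 76.6, 155 and 89.5 CPM (log2 fold change -2.95, SE 1.18, adjusted p = 0.132). The medians of the lists were -0.27 and -0.35. A pair of genes of the first list was at the floor in every Myc_Utx line and above it in every Myc_p53 line, and neither entered the test. Itgb6, the beta chain of an epithelial integrin that releases TGF-beta from its latent complex, had 1, 0 and 1 counts against 395, 4 and 224 counts. Its mean was 52.0-fold lower against the floor, with Myc_p53_2 just above the floor. Nrros, a protein of myeloid cells that holds latent TGF-beta, had 1, 3 and 1 counts against 5, 7 and 6 counts. That is 1.61-fold lower against the floor, which sets no lower bound at such counts.

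Of the BMP and GDF ligands that fibrillin prodomain binding stores, 8 were measured, 3 tested and 1 lower. Bmp2 had 5, 5 and 4 counts in Myc_Utx and 24, 28 and 16 counts in Myc_p53 lines (log2 fold change -1.96, SE 0.43, edgeR adjusted p = 0.0344). Of 5 scaffold partners, 4 were tested and 0 passed. Fn1, the fibronectin on which LTBP1 and fibrillin-1 are first laid down, had 1339, 1920.4 and 1129 CPM in Myc_Utx and 999, 3921 and 5151 CPM in Myc_p53 lines (log2 fold change -1.20, SE 0.57, edgeR adjusted p = 0.184). Vcan, the versican bound by fibrillin-1 and fibulins, had 257, 251 and 429 CPM against 37.6, 456 and 159 CPM (log2 fold change 0.52, adjusted p = 0.667). Dcn, a small proteoglycan and fibroblast marker below the filter, had 1, 3 and 0 counts against 86, 9 and 109 counts, 16.8-fold lower against the floor.

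Per kilobase, the leading member differed from line to line. It was Ltbp3 in Myc_Utx_2A (31.8 RPKM), Fbn1 in 2B (27.8) and Fbln1 in 2D (20.8). It was Ltbp3 in Myc_p53_1 (36.4), Fbn1 in Myc_p53_2 (59.2) and Fbln2 in Myc_p53_3 (68.8). In Myc_Utx_2A the lead of Ltbp3 over Fbn1 (30.5) was small, and it rests on the Ltbp3 length in the table, 5190 bases, where the GENCODE exons total 9069.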

How the data were processed

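RNA from 3 Myc_Utx and 3 Myc_p53 cell lines was sequenced, and the table the authors deposited holds raw counts for each Ensembl gene with gene coordinates and a transcript length. The submitters' processing notes name Trimmomatic 0.36, STAR 2.5.3a, featureCounts 1.6.3, DESeq2 1.20.0 and GRCm38, whereas the study's methods name HTSeq and a human build; coordinates of 9 of the 10 members equal GENCODE M21. The strand setting of counting is not given in the sources used here. Groups follow the genotype label. Testing used edgeR 4.0.16 under R 4.3.3 on the deposited counts (filterByExpr with a minimum count of 10, TMM, quasi-likelihood F test) over 11510 genes, with Benjamini-Hochberg adjustment and a threshold of 0.05. The common dispersion was 0.1116, a biological coefficient of variation of 33.4%. Standard errors derive from the F statistic. The procedure was tested on simulated data. The members, lists and tests were chosen with earlier results of these data known. Named genes are the members, pathway genes that passed the test or were at or under 3 counts in all lines of 1 group only, marker genes, Kdm6a, protein-coding neighbours of Fbn2 and the 5 genes most like it, and further pathway genes were named after their values were seen. Alternatives were other count filters, DESeq2 size factors, total counts only, offsets for transcript length (MASS 7.3.60.0.1), DESeq2 1.42.0 and leaving out each line, and those for the pathway genes and GENCODE lengths were added after seeing the data.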

Additional observations from a re-analysis of the deposited data

How the results depend on the processing

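No paired analysis was possible because no replicate number occurs in both groups. With DESeq2, 1 member was called higher (Ltbp4) and 2 lower (Ltbp2 and Fbln2), as were 1277 and 1572 of all genes and 15 pathway genes lower. Without a filter on low counts, 2 members were lower. With at least 10 counts in every line, which tests fewer genes, 1 pathway gene was higher and 2 lower. Leaving out each line in turn, which also leaves fewer samples, gave 0 to 2 members lower, 3 to 836 genes higher and 1 to 1118 lower, and 0 to 5 pathway genes higher and 0 to 8 lower, while 3125 to 4354 genes had an unadjusted p under 0.05 (4026 with 6 lines). Fbn1 turned to 0.11 with length offsets. With a line left out, log2 fold changes ranged from -0.70 to 1.65 for Fbn1, -0.82 to 0.22 for Ltbp1, -0.34 to 1.47 for Fbln1 and -0.76 to 1.27 for Fbln5. The cause was not tested. The median over all genes moved to -0.23 without the filter, which adds genes of few counts. Of 207 comparisons of single genes with an alternative, 144 kept their direction and side of the threshold, 50 kept the direction and lost the call, 4 gained one and 9 turned. The 207 include the Fbn2 bound and fits of Ltbp2, neither of which has a test in the main comparison. Of the gained calls only that of Ltbp4 changed side of the threshold, and the others were of Ltbp2. Between 4656103 and 6937497 counts per line, genes with a few counts, such as Eln, cannot be compared.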
